A study of Homo sapiens with 9 samples.

Results

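The peaks described here were those that Ago-HITS-CLIP placed in a 3′UTR after transfection of a miR-342-3p mimic and that held a match to the miR-342-3p seed next to their summit. A peak belonged to the set when its midpoint lay, on the same strand, in an annotated 3′UTR of a protein-coding gene, and when an 8mer, 7mer-m8 or 7mer-A1 site was found on that strand within 50 nt of the summit. This held for 275 of the 1164 3′UTR peaks (23.6%, 95% Wilson interval 21.3 to 26.1%) and for 7.97% of all 3450 peaks in the deposited miR-342-3p list. They lay in 256 genes, which were 6.90% of the 3712 protein-coding genes with a peak in either deposited list. The libraries came from MDA-MB-231HM cells, a highly metastatic variant of a human triple-negative breast cancer line without an engineered genotype. The cells had received 20 nM of a miR-342-3p, a miR-342-5p or a negative control mirVana mimic for 48 h, with 3 libraries for each of the 3 mimics. All groups, the controls included, thus carried a transfected mimic, in 1 cell line. Ago and the RNA crosslinked to it were immunoprecipitated with an antibody to Ago2, and peaks of each miR-342 mimic were called over the negative control by the authors. Each peak carries a score, described as reads above background. The 2 lists merge the 3 replicates, so no value per library, no depth and no replicate error was available, and intervals and tests on numbers of peaks or sites cover counting error only. The lists hold peaks alone, so the identity of the cells could not be checked against marker genes.

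A miRNA guides Argonaute to mRNAs mainly through its seed, the bases near its 5′ end, and most sites that repress an mRNA lie in its 3′UTR. An 8mer pairs with bases 2 to 8 and has an A opposite base 1, a 7mer-m8 pairs with bases 2 to 8 without that A, and a 7mer-A1 pairs with bases 2 to 7 and has the A. Sites are in general better bound as this match grows longer, and a 6mer, which has only the pairing to bases 2 to 7, is the weakest of these. Both strands of the miR-342 hairpin give a mature miRNA, and their seeds differ.

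The mature miRNA is shown first, as RefSeq gives it, with bases 2 to 8 in capitals. It is followed by sites of peaks with some of the highest scores for each site type, and by those of E2F1, CDC42 and PAK2, which the study followed. Each stretch is 30 nt of the GRCh37 (hg19) transcript strand, 5′ to 3′, ends at the base opposite miRNA base 1 and has the matched bases in capitals.
hsa-miR-342-3p: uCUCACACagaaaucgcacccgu
IER3 (8mer, chr6:30711146-30711175, minus strand): aucucaacuccgucugucuacuGUGUGAGA
NRP1 (8mer, chr10:33468125-33468154, minus strand): acuaagaagaaaguuuauuuucGUGUGAGA
TRAM2 (8mer, chr6:52363684-52363713, minus strand): cagauugcgugcgugcgccuguGUGUGAGA
CDC42 (8mer, chr1:22418126-22418155, plus strand): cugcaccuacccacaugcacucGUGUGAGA
PAK2 (8mer, chr3:196555529-196555558, plus strand): gccuaucagggccauuuaucauGUGUGAGA
DUSP6 (7mer-m8, chr12:89741990-89742019, minus strand): guauaaaacuggaaguguguguGUGUGAGc
PLAU (7mer-m8, chr10:75676860-75676889, plus strand): ugugugugggcugugaguguaaGUGUGAGu
MEAK7 (7mer-m8, chr16:84512655-84512684, minus strand): ucagcuguuuuuaaaugaauguGUGUGAGg
E2F1 (7mer-m8, chr20:32264278-32264307, minus strand): cguguguaccgggggugaauguGUGUGAGc
ZDHHC7 (7mer-A1, chr16:85008165-85008194, minus strand): caauuauccaagugguugaauccUGUGAGA
IDI1 (7mer-A1, chr10:1086892-1086921, minus strand): guguucuguuucuaagcgacauuUGUGAGA
JUN (7mer-A1, chr1:59247286-59247315, minus strand): ggaggggcggcaggagggagguuUGUGAGA
The capitals of an 8mer run to the A at the 3′ end, and in a 7mer-A1 they begin 1 base later. The base just 5′ of the 8mer or 7mer-m8 capitals faces miRNA base 9 and is u in 6 of the 9 such sites shown here.

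The scores of the 275 peaks spread over 3 orders of magnitude, from 5 to 5334, around a median of 33 (quartiles 18.5 and 64). Of these peaks, 94 had a score above 50, 50 above 100 and 5 above 500, while 11 stayed below 10. The median of all 3450 peaks was 24, and that of the 889 3′UTR peaks without a site was also 24. The best site was an 8mer in 117 peaks (42.5%), a 7mer-m8 in 128 (46.5%) and a 7mer-A1 in 30 (10.9%). The median score was 44 for peaks with an 8mer, 29 for those with a 7mer-m8 and 29 for those with a 7mer-A1. A score above the median of the whole list was reached by 77 of 117 8mer peaks (65.8%) and 93 of 158 7mer peaks (58.9%). This difference of 6.95 percentage points was within counting error (p = 0.26 by a two-sided Fisher's exact test, adjusted p = 0.379 over 4 comparisons of peaks).

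**Figure D1:**
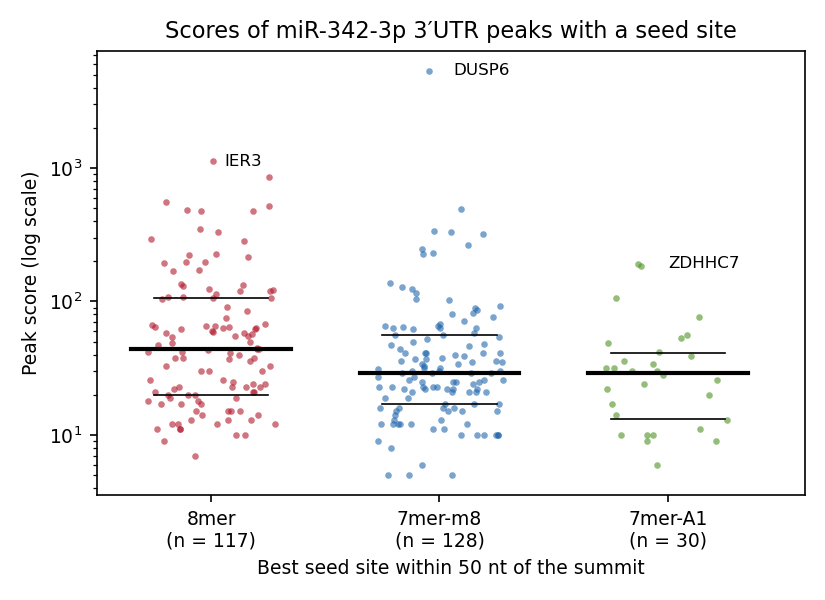
Score of each of the 275 miR-342-3p 3′UTR peaks with a seed site (vertical axis, log scale), by the best site within 50 nt of the summit (horizontal axis). Points are peaks, the thick line is the median and the thin lines the quartiles. The 3 groups overlap over most of their range, and the DUSP6 peak at 5334 stands above all others.

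DUSP6, the phosphatase that switches off ERK, had the peak with the highest score, 5334, at a 7mer-m8 that lay 1036 nt after the stop codon in a 3′UTR of 2022 nt. An alternating GU run of 13 nt ran into this site, as the sequence shows. IER3, an immediate early gene of the stress and growth factor response, followed with 2 peaks at separate 8mers of a short 3′UTR (906 nt). Their scores were 1125 and 485, and their summits were 220 nt apart. NRP1, a coreceptor for VEGF and semaphorins, had a score of 851 at the only 7mer or 8mer site of its 3′UTR. TRAM2, a protein of the ER translocation site, had 552, and KLF6, a zinc finger transcription factor, had 521. Further down came TACC1, a coiled-coil protein of the centrosome, with 494, CRIM1, a transmembrane protein that binds BMPs, with 477 and FOXQ1, a forkhead transcription factor, with 473. IGF1R, the receptor of insulin-like growth factors, had peaks of 350 and 113 whose summits lay 23 nt apart and shared 1 site. PLAU, the protease urokinase that activates plasminogen, had 338, and FUT8, which adds core fucose to N-glycans, had 332. Of the 12 peaks with the highest scores, 9 had an 8mer as their best site, and the other 3 (DUSP6, TACC1 and PLAU) a 7mer-m8. The site need not lie at the summit: its centre was 31.5 nt downstream of it in KLF6 and 25.5 nt upstream in FUT8. The next 7mer-m8 peak was that of MEAK7, an activator of mTOR signalling, with 329. Among peaks whose best site was a 7mer-A1, the highest scores were those of ZDHHC7, a palmitoyltransferase, with 192, IDI1, an enzyme of isoprenoid synthesis, with 183, JUN, a subunit of AP-1, with 106 and LRRC57 with 77.

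Peaks in coding exons were the closest comparison, since 312 of them also had a seed site by the same criteria. The 2 sets had the same median score of 33, and a score above the list median was held by 61.8% of the 3′UTR peaks and 58.7% of the coding peaks (difference 3.16 percentage points, p = 0.448 by the same exact test, adjusted p = 0.448). An 8mer was the best site in 117 of 275 3′UTR peaks (42.5%, 36.8 to 48.5%) and in 102 of 312 coding peaks (32.7%, 27.7 to 38.1%). That difference of 9.85 percentage points had p = 0.0166 by the exact test but missed the threshold after adjustment (adjusted p = 0.0663). It passed among peaks with a score of at least 10 (10.9 percentage points, exact test, adjusted p = 0.036). A 7mer-A1 was the best site in 10.9% of the 3′UTR peaks and in 26.9% of the coding peaks (22.3 to 32.1%), which was seen after the values were known and was not tested. More than 1 site around the summit was found in 15 of the 3′UTR peaks (5.45%) and 3 of the coding peaks (0.962%). An alternating GU run of at least 12 nt lay within 50 nt of the summit in 44 of the 3′UTR peaks (16%, 12.1 to 20.8%), in 161 of the 889 3′UTR peaks without a site (18.1%) and in 0 of the 312 coding peaks with a site. The seed match is itself an alternating run with 1 changed base, and the part of such repeats in the scores was not tested.

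The site sat close to the summit. Its centre was within 10 nt of the summit in 183 of the 275 peaks (66.5%, 60.8 to 71.9%) and within 20 nt in 247 (89.8%), and in 263 the whole site lay inside the peak. In coding peaks 70.8% of the sites were within 10 nt, a difference of -4.29 percentage points that was within counting error (p = 0.284 by the exact test, adjusted p = 0.379). The position depended on the strand of the genome. On the plus strand the site centre lay a median of 1 nt downstream of the summit (quartiles -4.5 and 9.75, 130 peaks), and on the minus strand 8 nt downstream (0.5 and 11.5, 145 peaks). Coding peaks showed the same shift, with medians of 1 nt and 8.5 nt. A shift that runs with the genome rather than the transcript was present in the summit column of both sets, and its cause was not tested. A few members were held only by a distant site. The farthest base of the site was 50 nt from the summit in DENND5B (score 7) and 48 nt in TTYH3 (score 21), and just outside the window it was 52 nt away in further peaks of FOXQ1 (score 68) and LASP1 (score 18) and in a peak of LONRF1 (score 11).

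**Figure D2:**
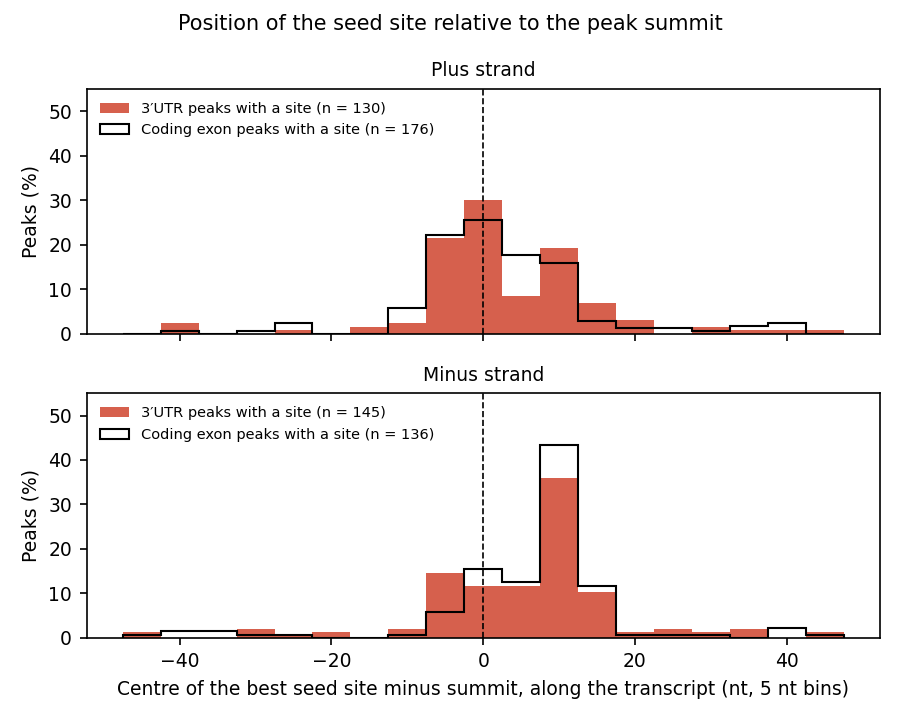
Position of the centre of the best seed site relative to the summit, in nt along the transcript (positive is downstream), as the percent of peaks in bins of 5 nt, for peaks on the plus strand (top) and the minus strand (bottom). Filled bars are the 3′UTR peaks with a site and the black outline the coding exon peaks with a site. In both sets the sites gather near the summit, with a median of 1 nt for the 130 3′UTR peaks on the plus strand and 8 nt for the 145 on the minus strand.

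Most genes had 1 such peak: 238 had 1, 17 had 2 and PAGR1, a subunit of histone methyltransferase complexes, had 3, with scores of 22, 17 and 5 on 2 sites. Among the 17 genes with 2 peaks, 10 had them at separate sites and 7 at the same site, so the 275 peaks stood for 267 distinct best sites. Clusters of sites under 1 summit were rare: 260 peaks had 1 site, 12 had 2, 2 had 3 and 1 had 4. The peak with 4 sites was in HDAC7, a class II histone deacetylase, with a score of 116, and its sites are shown because they follow each other so closely that the stretches overlap.
HDAC7 site 1 (7mer-m8, chr12:48176665-48176694, minus strand): cuggggucaagaaggaaaauguGUGUGAGc
HDAC7 site 2 (7mer-m8, chr12:48176653-48176682, minus strand): aggaaaaugugugugagcauguGUGUGAGu
HDAC7 site 3 (7mer-m8, chr12:48176636-48176665, minus strand): caugugugugagugaggcguguGUGUGAGc
HDAC7 site 4 (7mer-m8, chr12:48176624-48176653, minus strand): ugaggcgugugugugagcguguGUGUGAGu
Their centres lay from 21 nt upstream to 20 nt downstream of the summit, and all 4 were 7mer-m8 sites preceded by u. An alternating GU run of 12 nt lay within 50 nt of this summit, and its part in these matches was not tested. Peaks with 3 sites were found in SHB, an adaptor of tyrosine kinase receptors, with a score of 82 and in LASP1, an actin-binding protein, with a score of 63. The next, with 2 sites, was USP13, a deubiquitinase, with 108. The median score was 32 for peaks with 1 site and 37 for those with 2.

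Members were then read against lists of genes. The E2F and cell cycle list had 48 genes with a peak in either list, of which 5 (10.4%) held a member, beside 6.90% of all such genes. E2F1, the transcription factor that drives genes of S phase, had a score of 65 at a 7mer-m8 that lay 255 nt after the stop codon. ANLN, a scaffold of the cytokinetic ring, had 226 at an 8mer. DNMT1, the maintenance DNA methyltransferase, and LIG1, the DNA ligase of replication, both had 56 at a 7mer-m8, and RRM2, a subunit of ribonucleotide reductase, had 37 at an 8mer. 2 further genes that the study followed had 8mers near the stop codon. CDC42, a small GTPase that controls filopodia and polarity, had 173 at a site 140 nt after the stop codon, and its effector kinase PAK2 had 119 at 277 nt.

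Growth factor and MAPK signalling had 5 of 33 genes with a member (15.2%). Beside DUSP6, IGF1R and JUN these were INSR, the insulin receptor, with a score of 17, and GRB2, the adaptor that links receptors to RAS, with 13. TGF-beta and EMT had 1 of 33 (3.03%), the receptor BMPR2 with 16. miRNA machinery and mRNA decay had 2 of 25 (8.00%), AGO2, an Argonaute itself, with 137 and UPF1, the helicase of nonsense-mediated decay, with 36. Membrane traffic had 3 of 49 (6.12%): SEC61G, a subunit of the ER translocon, with 57, ARF3, a GTPase of the Golgi, with 40 and DTNBP1, which belongs to a complex of lysosome biogenesis, with 10. Ubiquitin and proteasome had 5 of 43 (11.6%), led by the ligase RNF145 with 107 and the conjugating enzymes UBE2H with 33 and UBE2D2 with 30 and 10. UBE2R2, a further conjugating enzyme, had 15. Chromatin regulators had 8 of 71 (11.3%), led by HDAC7 (116), DNMT1 (56), the acetyltransferase EP300 (54) and PHF13 (35). These shares rest on 1 to 8 genes each and were not tested. Of 33 genes that the study names for this experiment, 12 held a member and 21 did not. Of all 3712 protein-coding genes with a peak in either list, 256 (6.90%) held one. Genes without a member included LMNB1 and HMGB2, which the study lists with RRM2 and DNMT1 among E2F pathway targets. AURKB, RAN, USP1, MAD2L1, KIF4A, JAG1 and RBPJ also had none. Those with a member not yet named were GXYLT1, a glycosyltransferase acting on Notch, with 58 and CA12, a carbonic anhydrase of the cell surface, with 45. TTYH3, given above for its distant site, had 21. The study chose its genes partly on these libraries, so their presence here is not independent evidence.

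Which sites were occupied was asked from the side of the transcripts. The longest annotated 3′UTR was taken of each gene with a miR-342-5p peak anywhere in it, introns and non-coding exons included. Such a peak shows, without the use of the miR-342-3p list, that RNA of the gene was captured. It does not show that the mRNA with this 3′UTR was. A site counted as occupied when a miR-342-3p summit lay within 50 nt. Of 892 7mer and 8mer sites, 103 were occupied (11.5%). The share was 37 of 113 for 8mers (32.7%, 24.8 to 41.8%), 59 of 438 for 7mer-m8 sites (13.5%, 10.6 to 17.0%), 7 of 341 for 7mer-A1 sites (2.05%, 0.998 to 4.18%) and 18 of 1030 for 6mers (1.75%, 1.11 to 2.75%). 8mers were occupied more often than 7mer-m8 sites by 19.3 percentage points (adjusted p = 7.76e-06 by a two-sided Fisher's exact test, over 4 comparisons of sites), and 7mer-m8 sites more often than 7mer-A1 sites by 11.4 percentage points (exact test, adjusted p = 3.12e-09). 7mer-A1 sites and 6mers differed by 0.305 percentage points (exact test, adjusted p = 0.648). Over the 3′UTRs of all genes with a peak in either list that last difference was 2.57 percentage points and passed the exact test (adjusted p = 0.00209), although those genes were taken partly for their miR-342-3p peaks. Sites of the other strand, miR-342-5p, gave the background in the same 3′UTRs: a miR-342-3p summit lay near 8 of 1185 of its 7mer and 8mer sites (0.675%), and near 0 of 170 of its 8mers, where the Wilson interval reached 2.21%. The difference to miR-342-3p sites was 10.9 percentage points (exact test, adjusted p = 1.38e-29). The median scores were 54, 37, 28 and 22 over the occupied 8mer, 7mer-m8, 7mer-A1 and 6mer sites of these 3′UTRs, of which the third rests on 7 sites, and 55.5, 36, 37 and 38 over those of the coding sequences, where only the 8mers stood higher.

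In the coding sequences of the same mRNAs the occupied share was 41.2% of 68 8mers (30.3 to 53.0%) and 16.7% of 222 7mer-m8 sites (12.3 to 22.1%), and both intervals overlapped those of the 3′UTRs. For 7mer-A1 sites it was 10.3% of 262 (7.18 to 14.6%) beside 2.05% in 3′UTRs, with intervals that did not overlap. This contrast was picked after the values were seen and was not tested. 7mer-A1 sites made up 341 of the 892 7mer and 8mer sites in these 3′UTRs (38.2%) and 262 of the 552 in the coding sequences (47.5%). A 7mer-A1 was the best site in 10.9% of the 275 3′UTR peaks and in 26.9% of the 312 coding peaks. These last shares count it only where no longer site lay near the summit. They also cover other genes: of the 256 genes of the 3′UTR peaks, 89 had a miR-342-5p peak.

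**Figure D3:**
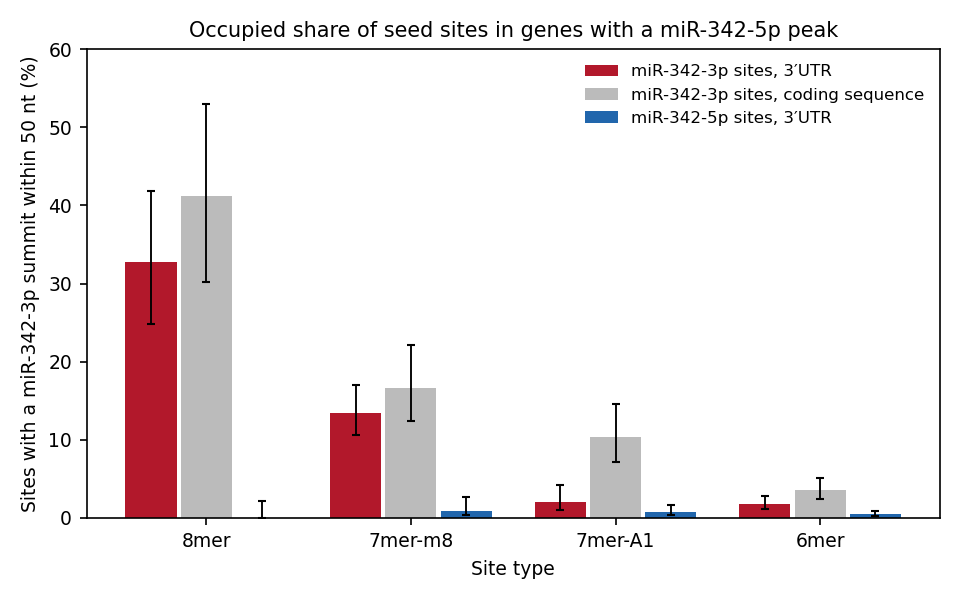
Percent of seed sites with a miR-342-3p summit within 50 nt (vertical axis), by site type (horizontal axis), in genes with a miR-342-5p peak. Bars are shares of sites and error bars 95% Wilson intervals, for miR-342-3p sites in 3′UTRs (red) and coding sequences (grey) and for miR-342-5p sites in 3′UTRs (blue). In 3′UTRs the share falls from 32.7% of 8mers to 13.5% of 7mer-m8 sites and 2.05% of 7mer-A1 sites, while all miR-342-5p sites stay below 1%.

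Occupied and unoccupied sites of the same annotated 3′UTR were compared within genes, so that differences between genes in level and capture do not enter. Sites far from the stop codon can still be missing from shorter forms of a transcript. Over all genes with a peak in either list, 248 had an occupied site in the longest 3′UTR. In 141 of these it was the only 7mer or 8mer site, in 13 all of several sites were occupied, and in 94 some were occupied and others not. These 94 genes held 102 occupied and 159 unoccupied sites. The probability that the 7 nt opposite miRNA bases 2 to 8 were unpaired in local folds of the 3′UTR was higher at the occupied sites in 65 genes and lower in 29. It averaged 12.6% at occupied and 6.01% at unoccupied sites, a mean difference of 6.64 percentage points (SD 17.6, n = 94 genes, two-sided exact sign test, adjusted p = 6.54e-04 over 5 comparisons). The difference was thus smaller than the spread between genes, and the medians of the genes were 6.18% and 3.60%.

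**Figure D4:**
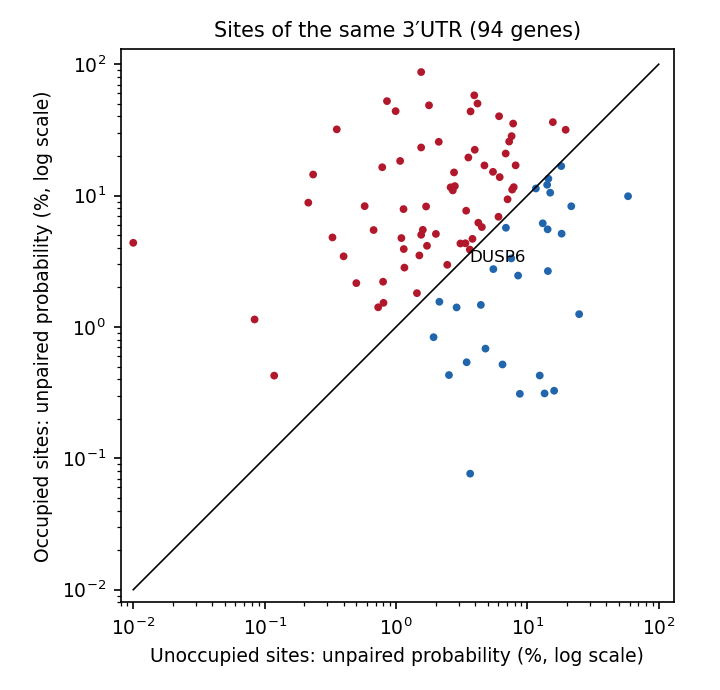
Probability that the seed site is unpaired, in percent on log scales, at the occupied sites (vertical axis) against the unoccupied sites (horizontal axis) of the same 3′UTR. Each point is 1 of 94 genes, as the mean over its sites, red where the occupied sites were higher (65 genes) and blue where they were lower (29 genes), and the line marks equal values; 1 gene below 0.01% is drawn at that value. DUSP6 is labelled.

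The base opposite miRNA base 9, which is an A in miR-342-3p, also differed. A U there, which can extend the pairing by 1 base, was more frequent at the occupied sites in 48 genes and at the unoccupied sites in 13, with 33 ties (two-sided exact sign test, adjusted p = 3.83e-05). It did not pass against only those unoccupied sites that lay before the farthest occupied site (exact sign test, adjusted p = 0.382). It was present at 68 of the 102 occupied sites (66.7%) and 52 of the 159 unoccupied sites (32.7%). Among unoccupied 8mers alone it was found in 4 of 23, against 27 of 42 occupied 8mers. Over the whole set, 192 of the 275 peaks (69.8%) had a U at this place, with a median score of 35.5 beside 29 for the other 83. Since occupied sites were also more often 8mers, sites of the same type in the same 3′UTR were compared in addition, a choice made after seeing the data. Both differences kept their direction and passed narrowly (adjusted p = 0.0482 for each by the exact sign test). The unpaired probability was higher at the occupied sites in 32 of 47 pairs, and the U more frequent in 21 of 29 without a tie. A pair was 1 site type in 1 gene, and FOSB gave separate pairs for its 8mers and its 7mer-m8 sites. The pairs were thus not all independent, and a count by gene was not made.

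The 3′UTR of DUSP6, taken as an example after its values were seen, shows both kinds of site.
DUSP6 occupied (7mer-m8, chr12:89741990-89742019, minus strand): guauaaaacuggaaguguguguGUGUGAGc
DUSP6 unoccupied (8mer, chr12:89741342-89741371, minus strand): aauucuaccugcagauauccuaGUGUGAGA
The peak of 5334 lay on the 7mer-m8, which has u before the capitals and was unpaired with a probability of 4.34%, and no summit was near the 8mer, which has a at that place (3.38%). CDC42 went the other way: its occupied 8mer, without the U, was unpaired with a probability of 1.25%, and the unoccupied 7mer-A1 near the far end of its 9846 nt 3′UTR with 24.8%. TACC1 had 3.88% at the occupied 7mer-m8 and 3.65% at the unoccupied 7mer-A1.

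Occupied sites also lay nearer to the stop codon, in 65 genes against 29 (means 1655 and 2454 nt, mean difference -799 nt, SD 2036, n = 94 genes, two-sided exact sign test, adjusted p = 4.36e-04), a measure added after seeing the data. The other comparisons were therefore repeated on each side. Against unoccupied sites before the farthest occupied site, the unpaired probability was higher at the occupied sites in 29 of 40 genes (exact sign test, adjusted p = 0.0257), while the U opposite base 9 was more frequent in 14 of 22 genes without a tie and no longer passed (exact sign test, adjusted p = 0.382). Against unoccupied sites after it, the counts were 46 of 67 genes (exact sign test, adjusted p = 0.00766) and 37 of 44 (exact sign test, adjusted p = 2.65e-05). The difference between the 2 sides was not tested.

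For the remaining features no difference passed. The A and U content of the 30 nt on each side was higher at the occupied sites in 53 genes and lower in 39 (means 55.9% and 54.4%, two-sided exact sign test, adjusted p = 0.292). With 15 nt on each side, 49.4% of the genes had the higher value at the occupied sites, so no direction held. The distance to the nearer end of the 3′UTR was larger at the occupied sites in 42 genes and smaller in 52 (means 1060 and 1263 nt, exact sign test, adjusted p = 0.442). Pairing to miRNA bases 13 to 16 was found at 1 of the 102 occupied and 0 of the 159 unoccupied sites, too few for any test to pass. The best sites of the peaks lay all along the 3′UTR. Of the 266 with their site in the longest 3′UTR of the gene, 86 (32.3%) were in its first 20% and 42 (15.8%) in its last 20%, and the median was 804 nt after the stop codon in 3′UTRs with a median length of 2773 nt. The longest annotated 3′UTR need not be the one these cells used, and whether unoccupied sites were transcribed was not tested.

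Few of the peaks coincided with binding of the other strand. A miR-342-5p peak overlapped 6 of the 275 peaks (2.18%), beside 11 of the 889 3′UTR peaks without a site (1.24%, p = 0.255 by the exact test). The 6 were in FUT8 (332), MARK3 (193), ATXN2L (170), RASSF1 (63), ACSL4 (26) and KAT2A (10), named after their values were seen, and 4 of them had an 8mer as their best site. Both lists share the negative control libraries. At the level of genes, a miR-342-5p peak was present in 89 of the 256 genes (34.8%) and in 211 of the 656 genes whose 3′UTR peaks all lacked a site (32.2%), in the 3′UTR for 31 (12.1%) and 74 (11.3%). A further miR-342-3p peak anywhere in the gene was present in 118 of the 256 (46.1%, 40.1 to 52.2%) and in 188 of the 656 (28.7%, 25.3 to 32.2%), and one in a coding exon in 14.8% and 15.1%. These shares were not tested, and genes with many peaks are more likely to hold one with a site.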

How the data were processed

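9 Ago-HITS-CLIP libraries, 3 for each of 3 mimics, had been merged by the authors into 2 deposited lists of peaks on hg19, whose score column is described as reads above background, with a lowest score of 5. The submitters' processing notes name cutadapt 1.13, TopHat2 2.0.13, UMI-tools and MACS2 2.1.1.20160309. How libraries were scaled is not given in the sources used here. Groups came from the titles.

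Peaks were placed on GRCh37 with GENCODE release 44 by midpoint and strand, a 3′UTR before a coding exon, with Python 3.11.15, pandas 2.3.3, scipy 1.17.1 and pysam 0.24.0. Seed matches were searched within 50 nt of the summit. Unpaired probabilities came from ViennaRNA 2.7.2 (window 80, span 40, 7 nt). Shares have 95% Wilson intervals. Fisher's exact and exact sign tests were two-sided and adjusted by Benjamini-Hochberg within the 4 comparisons of peaks, 4 of sites and 5 of features. Where a feature gave no value under an alternative, the adjustment covered the remaining ones. The search, placement and tests were tested on simulated data.

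Members, lists and tests were chosen with earlier results of these data known. Genes are named by rule: the 12 highest scores, the 4 highest of each site type and list, genes with 3 or more peaks, the 4 peaks with most sites, the peaks at the window's edge, and genes the study names, partly read from its figures. Some items are not reported here. Alternatives were higher scores, coding exons first, a 25 nt window, 1 peak per gene, GU repeats left out, other gene sets, flanks and folds, and, added after seeing the data, sites of the same type, 3′UTRs in 1 exon, position in the 3′UTR and each strand alone.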

Additional observations from a re-analysis of the deposited data

How the results depend on the processing

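No paired analysis was possible because the deposited lists merge the replicates, and for the same reason no library could be left out. Of 105 values under alternatives, 97 were unchanged, which for tested values means the same direction and side of the threshold. For the untested share of 3′UTR peaks with a site it means a value inside the main Wilson interval, and the gene lists gave the same count. Values for pairing to bases 13 to 16 are among the 97, although only 1 gene differed there and no test could pass. The differences between 8mers and 7mer-m8 sites, between 7mer-m8 and 7mer-A1 sites and between miR-342-3p and miR-342-5p sites, and that of the unpaired probability, passed under every alternative that was run for them. So did the U opposite base 9 with 1 exception: against unoccupied sites before the farthest occupied site only, it was more frequent at the occupied sites in 63.64% of the genes without a tie (exact sign test, adjusted p = 0.382). Without GU repeats, the unpaired probability was higher at the occupied sites in 64.56% of the genes (exact sign test, adjusted p = 0.0256). For the U opposite base 9 this share was 78% (exact sign test, adjusted p = 3.61e-04). Within site types both passed narrowly, with FOSB entered as separate pairs (exact sign test, adjusted p = 0.0482 for each). Measured from the stop codon in place of the nearer end, 30.85% of the genes had the occupied sites farther away (exact sign test, adjusted p = 4.36e-04). With a score above 50, 29.65% of the 3′UTR peaks held a site. The larger 8mer share of 3′UTR than of coding peaks passed with a score of at least 10 (10.89 percentage points, exact test, adjusted p = 0.036), and the larger share of occupied 7mer-A1 sites than of 6mers passed over all genes with a peak in either list (2.571 percentage points, exact test, adjusted p = 0.00209). The cause of these changes was not tested. 3 differences turned their direction, none of them past the threshold on either side. A and U content over 15 nt was higher at occupied sites in 49.41% of the genes, the overlap with miR-342-5p peaks by midpoints within 25 nt differed by -0.06013 percentage points, and on the minus strand alone the share of peaks above the list median differed by -1.212 percentage points between 3′UTR and coding peaks. Pairing to bases 13 to 16 gave no value with a score above 50, without GU repeats, within site types or before the farthest occupied site, because no gene was left that differed. The adjustment in these settings covered the remaining features only. The 30 genes of the lists with a member were also 30 with a score of at least 10.

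Peaks of 1 gene, and sites of 1 3′UTR, are not independent, and none of the tests measures the spread between cultures. Depth is unknown, and an unoccupied site in a weakly expressed transcript, or beyond the end of the 3′UTR these cells used, cannot be told apart from an unbound one.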
